A study of Mus musculus with 8 samples.

Results

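Heme oxygenase 1 (Hmox1), the metallothioneins Mt1 and Mt2, and genes of the NRF2 antioxidant response were measured in cultured mouse pancreatic islets. The group comprised 10 genes, taken by name from the 54532 gene rows of each count table: Hmox1, Mt1, Mt2, Nqo1, Gclm, Gclc, Srxn1, Txnrd1, Slc7a11 and the gene of NRF2 itself, Nfe2l2. They were chosen by name and selected on sight of their CPM across the 4 groups, so the fold changes and adjusted p-values given here describe the fit and are not independent evidence. Islets came from wild-type mice or from mice labelled STING KO (Sting-/-), aged 25 to 30 weeks. They were handpicked after collagenase digestion and kept in culture overnight. Each genotype was then incubated for 3 h with DMSO, the solvent, or with 50 µg/mL of DMXAA. This compound activates mouse STING, the adaptor protein of the cytosolic DNA sensing pathway. There were 2 libraries in each of the 4 groups, made from polyA+ RNA. Strain, sex, the deleted allele, whether the genotypes were littermates, and whether a library came from 1 mouse or from pooled mice were not given in the sources used here. The p-values therefore measure the spread between libraries, which may be technical. Whole islets hold beta cells with other endocrine, vascular and immune cells, and the values are averages over them.

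NRF2 is a transcription factor that is held low by KEAP1, which passes it to a CUL3 ubiquitin ligase. Oxidants and electrophiles modify KEAP1, and NRF2 then accumulates, pairs with small MAF proteins and binds antioxidant response elements near genes for glutathione synthesis, thioredoxin recycling and quinone reduction. Hmox1, which breaks heme into biliverdin, carbon monoxide and iron, is also held down by BACH1, and metallothioneins, small cysteine-rich proteins that bind zinc and copper, are induced by the zinc sensor MTF1. Beta cells are known for low levels of several antioxidant enzymes and for a high content of zinc, which is stored with insulin.

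The libraries held 15624020 to 19601850 counts. Sting1 had 23 to 41 counts in the wild-type libraries and 19 to 48 in those labelled knockout, so that gene did not separate the labels and the libraries are called knockout-labelled. Whether the deleted part of the gene was covered by these counts was not given in the sources used here. Cxcl10, an interferon-response gene, was at 574 and 521 CPM (counts scaled to library size) in wild-type DMXAA libraries and at 5.71 and 5.44 CPM in knockout-labelled DMXAA libraries. The insulin gene Ins2 and the glucagon gene Gcg were abundant in every library, and the summed level of 10 beta cell markers was 163118 to 323572 CPM. No marker of the 9 cell type lists was at 0 in all 8 libraries. Summed acinar markers, from digestive tissue around the islets, reached 6515 CPM in wild-type DMSO library 1 and lay between 338 and 2798 CPM in the other libraries.

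Hmox1 and Txnrd1 were the members whose knockout-labelled libraries all lay above all wild-type libraries. The share of all tested genes apart in this way was not counted, so nothing is read from the number of such members. For the metallothioneins the labels were apart within each treatment but not across treatments. Mean levels of Hmox1, Mt1, Mt2 and Txnrd1 were highest in the knockout-labelled DMSO group and lowest in the wild-type DMXAA group. Group means differed between the highest and lowest group by 4.35 times for Mt2, 3.55 times for Mt1 and 3.47 times for Hmox1. The range was 1.81 times for Slc7a11, 1.54 for Nqo1, 1.48 for Txnrd1, 1.41 for both Gclc and Srxn1, 1.40 for Nfe2l2 and 1.15 for Gclm.

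**Figure D1:**
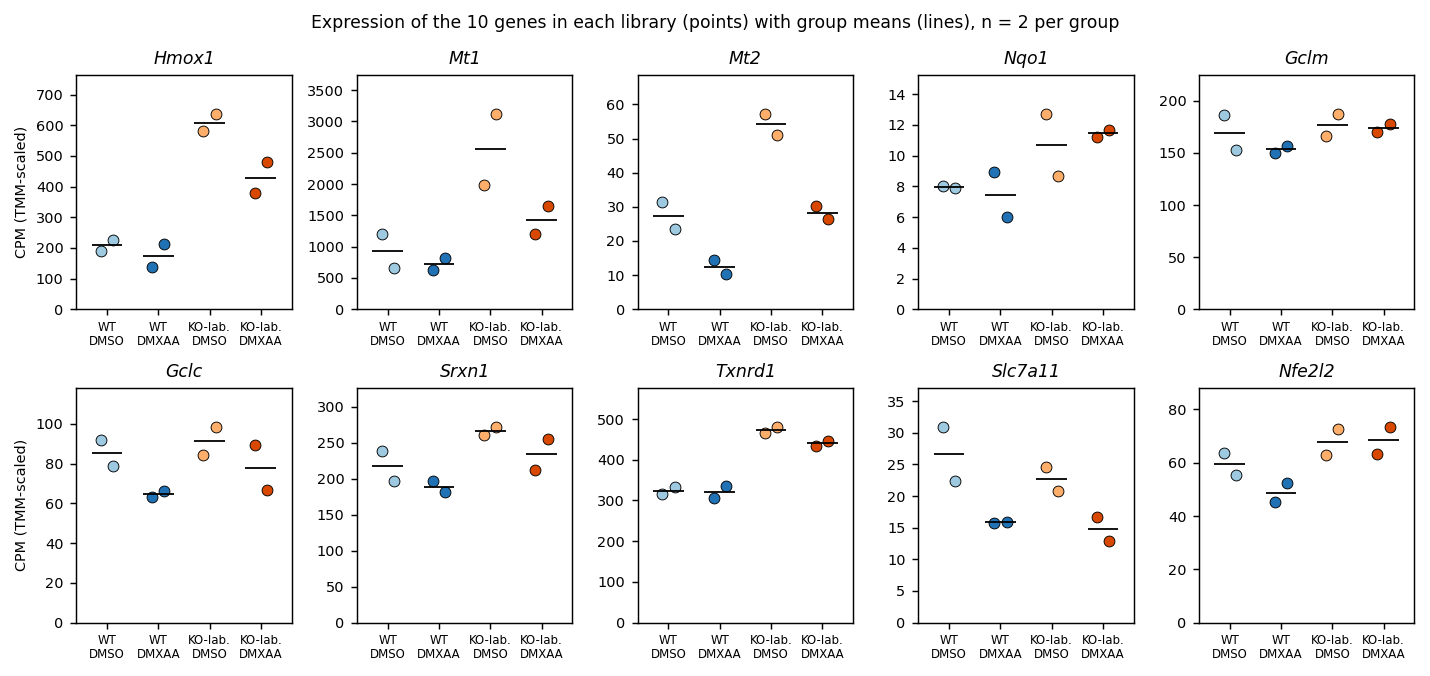
Level of each of the 10 genes in CPM scaled by TMM (y axis, from 0) in each library (points) of the 4 groups (x axis; KO-lab., knockout-labelled), with the mean of the 2 libraries of a group as a line. Both knockout-labelled groups lie above both wild-type groups for Hmox1 (378 to 638 against 137 to 227 CPM) and for Txnrd1 (433 to 481 against 306 to 336 CPM).

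Levels differed widely between the genes once divided by exon length. Over the 8 libraries, Mt1 had a mean of 1129 CPM per kilobase of exon (SD 676), and Hmox1 had 203 (SD 110). Srxn1 came next at 80.4 (SD 12.2), then Txnrd1 at 55.0 (SD 10.4) and Mt2 at 52.0 (SD 27.8). Mt1 was thus the most abundant member per length while the place of its close relative Mt2 depended on the group. Most exon bases of Mt2 overlap an antisense gene and the strand setting of the counting is unknown, so its place is uncertain. Mt2 had 97.4 and 86.8 CPM per kilobase in the knockout-labelled DMSO libraries, above Txnrd1 at 65.8 and 67.8, and 24.6 and 17.7 in the wild-type DMXAA libraries, below Txnrd1 at 43.2 and 47.4. Gclm had 26.8 CPM per kilobase (SD 2.33), Gclc 21.2 (SD 3.52) and Nfe2l2 16.1 (SD 2.56). The lowest were Nqo1 at 6.05 (SD 1.47) and Slc7a11 at 1.44 (SD 0.42), a gene with 13922 bases of annotated exon. These SDs span all 4 groups, and exon length is the union over annotated transcripts, which need not be the transcripts made in islets. Within groups, Txnrd1 had the least spread between libraries, with a pooled coefficient of variation of 4.16%, against 18.9% for Hmox1 and 29.9% for Mt1.

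Hmox1 (ENSMUSG00000005413, mm10 chromosome 8, 75093621 to 75100589, plus strand) encodes the inducible heme oxygenase. Wild-type islets had 191 and 227 CPM after solvent and 137 and 213 CPM after DMXAA. Knockout-labelled islets had 580.2 and 638 CPM after solvent and 378 and 481 CPM after DMXAA. All 4 knockout-labelled libraries were above all 4 wild-type libraries. The knockout-labelled groups did not overlap each other, and the wild-type groups did. Fewer cells of a type and less RNA per cell cannot be told apart in such bulk libraries. Hmox1 was 2.91 times as high in knockout-labelled as in wild-type islets with DMSO (log2 fold change 1.54, SE 0.21, edgeR quasi-likelihood adjusted p = 0.0098). With DMXAA the ratio was 2.45 (log2 fold change 1.29, SE 0.21, adjusted p = 0.00304). These comparisons have no library in common but come from 1 fit. Whether their islets came from the same mice was not given, so they are not independent repeats. The DMSO call was lost without wild-type DMSO library 1 (adjusted p = 0.0822), knockout-labelled DMSO library 1 (0.114) or knockout-labelled DMSO library 2 (0.159), at log2 fold changes of 1.41 to 1.67 over all 8 omissions. The DMXAA call was lost without wild-type DMXAA library 1 (adjusted p = 0.0693). Averaged over both treatments, a comparison added after the data were seen, the log2 fold change was 1.42 (SE 0.15, adjusted p = 0.000233) and was called with any single library left out.

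Hmox2 and the genes of the next step of heme breakdown were not called. Hmox2, the constitutive heme oxygenase, ranged from 31.9 to 44.7 CPM in the wild-type libraries and from 39.8 to 58.6 CPM in the knockout-labelled ones. Blvra and Blvrb encode the biliverdin reductases, which make bilirubin. Blvra had 6.04 to 8.31 CPM in wild-type and 7.61 to 8.55 CPM in knockout-labelled libraries, and Blvrb had 3.16 to 6.25 and 6.58 to 9.07 CPM. Blvrb did not overlap between the labels, and Hmox2 and Blvra overlapped. EdgeR called none of them in the 7 comparisons, with an unadjusted p under 0.05 only for Blvrb between labels with DMXAA and over both treatments. Its edgeR adjusted p-values there were 0.322 and 0.163.

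Markers of several cell types differed between the same groups. With DMSO, summed markers of lymphocytes were 2.07 to 6.84 CPM in wild-type and 33.3 to 33.6 CPM in knockout-labelled libraries, and 2 of the 5 tested were called higher. With DMXAA, macrophage markers, from cells in which Hmox1 is known to be strongly expressed, summed to 61.0 to 62.6 CPM in wild-type and 84.2 to 166 CPM in knockout-labelled libraries, with 1 of 10 called higher. Endothelial markers summed to 521 to 549 and 982 to 1021 CPM there, with 5 of 8 called higher. In the DMSO groups, macrophage sums overlapped, at 73.2 to 106 CPM in wild-type and 92.5 to 94.2 CPM in knockout-labelled libraries, and so did endothelial sums, at 657 to 841 and 603 to 659 CPM. Fibroblast and stellate cell markers were apart in opposite directions, at 100.2 to 276 CPM in wild-type and 79.8 to 81.4 CPM in knockout-labelled DMSO libraries, and at 61.2 to 122 and 143 to 175 CPM with DMXAA. Alpha cell markers summed to 16022 to 18647 CPM in wild-type and 19586 to 25827 CPM in knockout-labelled libraries, and delta and PP cell markers to 1718 to 2421 and 2660.2 to 5482 CPM. Duct markers overlapped, at 743 to 1092 and 763 to 1675 CPM. Beta cell markers were apart with DMSO, at 163118 to 218058 CPM in wild-type and 254453 to 260398 CPM in knockout-labelled libraries. EdgeR called 0 of these 10 markers. They overlapped with DMXAA, at 190541 to 232949 and 181553 to 323572 CPM. Lymphocyte sums were also apart with DMXAA, at 1.83 to 3.33 and 4.45 to 9.66 CPM, and edgeR called 0 of 5. The part of these cells in the differences of Hmox1 and the other members between labels was not tested. Acinar markers summed to 1472 to 2798 CPM in wild-type and 338 to 398 CPM in knockout-labelled DMXAA libraries. Adding their log2 sum to the fit left the Hmox1 log2 fold change with DMXAA at 1.29, with an adjusted p of 0.128.

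Mt1 (ENSMUSG00000031765, mm10 chromosome 8, 94179082 to 94180327, plus strand) and Mt2 (ENSMUSG00000031762, 94172664 to 94173568 on the same strand) are neighbours that encode metallothioneins 1 and 2. Windows before their annotated starts are shown because MTF1 acts through metal response elements in metallothionein promoters. These elements have the core TGCACNC or TGCGCNC. The sequences are the 250 bases before the RefSeq start in GRCm38.p6, 5′ to 3′ on the gene's strand, with matches to that core on either strand in capitals. The Mt1 window is chr8:94178839-94179088 and the Mt2 window chr8:94172368-94172617.
Mt1: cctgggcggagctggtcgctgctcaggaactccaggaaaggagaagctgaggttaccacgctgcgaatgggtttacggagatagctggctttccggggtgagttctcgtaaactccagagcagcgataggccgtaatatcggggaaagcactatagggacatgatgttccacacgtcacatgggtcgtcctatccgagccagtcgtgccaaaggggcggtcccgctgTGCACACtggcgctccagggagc
Mt2: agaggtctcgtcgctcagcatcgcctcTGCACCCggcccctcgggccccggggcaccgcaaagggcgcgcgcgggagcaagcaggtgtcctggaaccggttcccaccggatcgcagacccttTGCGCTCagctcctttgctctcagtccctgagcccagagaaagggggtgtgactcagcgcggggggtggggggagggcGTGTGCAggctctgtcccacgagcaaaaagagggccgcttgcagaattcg
The Mt1 window holds 1 match and the Mt2 window 3. Of 32851 mouse promoters of the same length, 21.4% hold at least 1 match and 5.17% hold 2 or more. With 50 bases after the start included, the numbers of matches are 3 for Mt1 and 4 for Mt2, and 25.7% of promoters hold at least 1. The numbers thus depend on the annotated start. Which starts are used in islets was not determined, so these numbers do not rank the promoters. The Mt2 window also holds 1 match to the antioxidant response element core TGACNNNGC, which overlaps an AP-1 site (TGAGTCA or TGACTCA) and is not in capitals. A match is a description of letters and not a binding site.

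Mt1 had 1199 and 655 CPM in wild-type DMSO libraries and 621 and 819 CPM in wild-type DMXAA libraries. In knockout-labelled libraries it reached 1992 and 3125 CPM after solvent and 1196 and 1646 CPM after DMXAA. Knockout-labelled libraries were above wild-type ones within each treatment, but knockout-labelled DMXAA library 1 lay just below wild-type DMSO library 1. The log2 fold change between the labels was 1.47 with DMSO (SE 0.32, adjusted p = 0.143) and 0.98 with DMXAA (SE 0.32, adjusted p = 0.196), neither of which passed the threshold of 0.05. Averaged over treatments it was 1.22 (SE 0.22, adjusted p = 0.0268), and that call was lost in 3 of the 8 omissions of a library, with adjusted p up to 0.267, and without a filter on low counts (adjusted p = 0.268). With the acinar sum in the fit, its log2 fold change between the labels was 1.77 with DMSO (adjusted p = 0.0093) and 2.00 with DMXAA (adjusted p = 0.0228), so both then passed.

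Mt2 had the lower counts of the pair. Wild-type islets had 31.3 and 23.4 CPM after solvent and 14.5 and 10.4 CPM after DMXAA, and knockout-labelled islets 57.3 and 51.0 CPM after solvent and 30.1 and 26.5 CPM after DMXAA. The knockout-labelled DMSO libraries were above all others and the wild-type DMXAA libraries below all others, while the remaining groups overlapped. With DMXAA, Mt2 was 2.28 times as high in knockout-labelled islets (log2 fold change 1.19, SE 0.20, adjusted p = 0.00502). That call was lost without wild-type DMXAA library 2 (adjusted p = 0.0929) and with the acinar sum in the fit (log2 fold change 1.39, adjusted p = 0.0671). With DMSO the log2 fold change was 0.99 (SE 0.19, adjusted p = 0.071), and averaged over treatments it was 1.09 (SE 0.14, adjusted p = 0.00117), called in all 8 omissions. DESeq2, which called 152 of 14385 genes between labels with DMSO, called Mt2 there (adjusted p = 0.00363). Of 588 exon bases of Mt2, 432 overlap the antisense gene Gm45774, which had 42 to 165 counts. Gm45774 was itself at 4.73 and 9.34 CPM in knockout-labelled and 2.21 and 3.30 CPM in wild-type DMSO libraries, without overlap (log2 fold change 1.36, SE 0.38, adjusted p = 0.202), and its groups overlapped with DMXAA. Without the strand setting of the counting, reads of these genes cannot be told apart. The level of Mt2 and its place among the members are therefore uncertain.

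**Figure D2:**
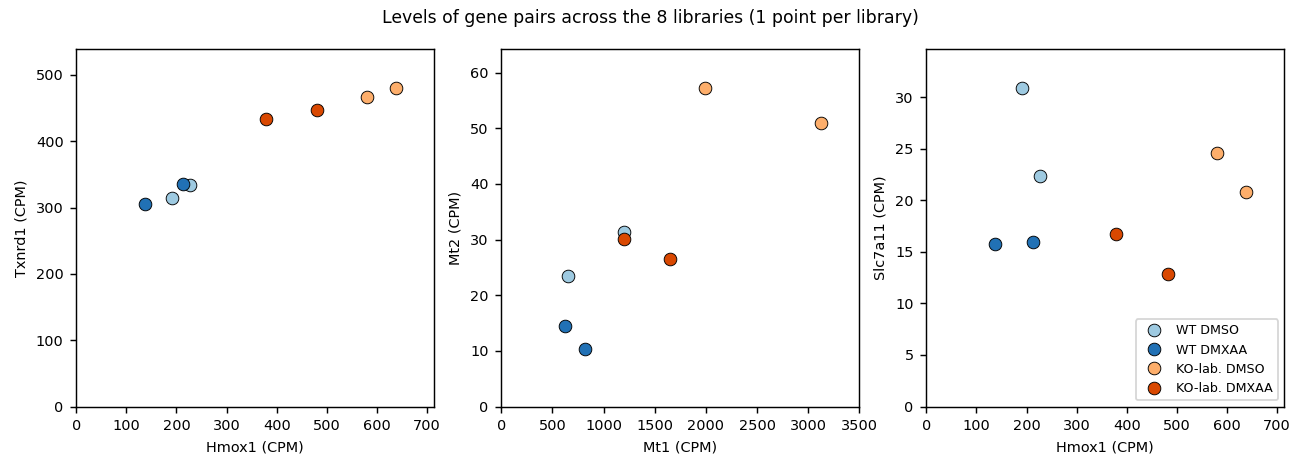
Levels in CPM of 3 gene pairs, 1 point per library (KO-lab., knockout-labelled): Txnrd1 against Hmox1, Mt2 against Mt1, and Slc7a11 against Hmox1, with both axes from 0. The first panel splits by genotype label and the third panel's y axis by treatment, with Slc7a11 at 12.8 to 16.7 CPM in DMXAA libraries and 20.8 to 30.9 CPM in DMSO libraries.

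Txnrd1 (mm10 chromosome 10, 82833951 to 82897712, plus strand) encodes the cytosolic thioredoxin reductase, a classic NRF2 target that keeps thioredoxin reduced. Of its 3 RefSeq starts, 1 has a match to the antioxidant response element core TGACNNNGC in the 250 bases before it, chr10:82858956-82859205 in GRCm38.p6. It is shown, with the match in capitals on the reverse strand, since Txnrd1 was the NRF2 target nearest to Hmox1 in its pattern.
Txnrd1: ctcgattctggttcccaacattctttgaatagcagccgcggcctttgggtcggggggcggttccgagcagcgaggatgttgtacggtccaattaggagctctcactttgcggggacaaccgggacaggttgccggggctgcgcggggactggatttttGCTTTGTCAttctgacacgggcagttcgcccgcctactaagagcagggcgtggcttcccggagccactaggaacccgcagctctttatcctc
That core is found in 10.2% of the 32851 promoter windows. Elsewhere among the members it was matched in the windows of Mt2, Gclm and Nfe2l2, and not in those of Mt1, Srxn1, Nqo1 and Slc7a11. With the 50 bases after the start included, Srxn1 also has 1 match, and 12.4% of promoters hold at least 1. RefSeq windows were matched for 8 of the 10 members, without Hmox1 and Gclc.

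Txnrd1 had 315 and 333 CPM (DMSO) and 306 and 336 CPM (DMXAA) in wild-type islets, against 466 and 481 CPM (DMSO) and 433 and 447 CPM (DMXAA) in knockout-labelled islets. The labels did not overlap, and the wild-type groups were alike in range. The log2 fold change between the labels was 0.55 with DMSO (SE 0.14, adjusted p = 0.174) and 0.46 with DMXAA (SE 0.14, adjusted p = 0.153), below the threshold in edgeR. DESeq2 called both, with adjusted p-values of 0.0177 and 0.0362. Averaged over treatments it was 0.50 (SE 0.10, edgeR adjusted p = 0.0233), a call lost in 4 of 8 omissions and with the acinar sum in the fit (adjusted p = 0.277).

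Srxn1 encodes sulfiredoxin, which repairs overoxidised peroxiredoxins. It had 239 and 197 CPM (DMSO) and 197 and 181 CPM (DMXAA) in wild-type islets, against 261 and 272 CPM (DMSO) and 212 and 255 CPM (DMXAA) in knockout-labelled islets. Its groups were apart by label within each treatment by small margins. The log2 fold change was 0.29 with DMSO (SE 0.16, adjusted p = 0.46) and 0.31 with DMXAA (SE 0.16, adjusted p = 0.442), and 0.30 averaged over treatments (adjusted p = 0.207). Nqo1, the quinone reductase often read as a marker of NRF2 activity, was low in these islets. It had 8.05 and 7.92 CPM (DMSO) and 8.94 and 5.98 CPM (DMXAA) in wild-type islets, against 12.7 and 8.66 CPM (DMSO) and 11.2 and 11.7 CPM (DMXAA) in knockout-labelled islets. Within each treatment the labels did not overlap, but knockout-labelled DMSO library 2 was below wild-type DMXAA library 1. The log2 fold change of Nqo1 was 0.42 with DMSO (SE 0.25, adjusted p = 0.521), 0.62 with DMXAA (SE 0.25, adjusted p = 0.306) and 0.52 over both (adjusted p = 0.178).

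The genes of glutathione synthesis showed little difference by label. Slc7a11 encodes the cystine importer of system xc-, and Gclc and Gclm the catalytic and modifier subunits of glutamate-cysteine ligase. Slc7a11 had 30.9 and 22.4 CPM (DMSO) and 15.8 and 16.0 CPM (DMXAA) in wild-type islets, against 24.6 and 20.8 CPM (DMSO) and 16.7 and 12.8 CPM (DMXAA) in knockout-labelled islets. It was the only member with a negative difference by label, and the labels overlapped with either treatment (adjusted p = 0.653 with DMSO and 0.883 with DMXAA). Gclc had 91.6 and 79.0 CPM (DMSO) and 63.1 and 66.2 CPM (DMXAA) in wild-type islets, against 84.3 and 98.4 CPM (DMSO) and 89.1 and 66.7 CPM (DMXAA) in knockout-labelled islets. Its DMSO groups overlapped, and its DMXAA groups were apart by less than 1 CPM (adjusted p = 0.831 and 0.551). Gclm varied least, with 186 and 153, 149.8 and 157, 166 and 188, and 170.1 and 178 CPM in the same order of groups. Its labels overlapped with DMSO and not with DMXAA (adjusted p = 0.886 and 0.66). Gclm shares 296 exon bases with the antisense gene Gm17494, which had 12 to 50 counts.

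Nfe2l2, the transcript of NRF2, which is regulated mainly as a protein, had 63.7 and 55.3 CPM in wild-type DMSO and 45.1 and 52.5 CPM in wild-type DMXAA libraries. The knockout-labelled libraries had 63.0 and 72.6 CPM after solvent and 63.4 and 73.4 CPM after DMXAA. The labels overlapped with DMSO and not with DMXAA. The log2 fold change was 0.19 with DMSO (SE 0.16, adjusted p = 0.638), 0.49 with DMXAA (SE 0.16, adjusted p = 0.168) and 0.34 over both (adjusted p = 0.163).

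Counted together, 1 of the 10 members was called higher in knockout-labelled islets with DMSO, Hmox1, where 0.223% of the 17055 tested genes were called and 0.182% were called higher. With DMXAA there were 2, Hmox1 and Mt2, where 2.39% of genes were called and 1.02% were called higher. Averaged over treatments there were 4, namely Hmox1, Mt2, Mt1 and Txnrd1, where 1.65% of genes were called and 0.657% were called higher. Libraries of the labels were apart and higher for 6 members with DMSO, against 24.3% of all genes, and for 9 with DMXAA, against 23.3%. The median log2 fold change of the members was 0.35 with DMSO and 0.47 with DMXAA, beside 0.00 and 0.04 over all genes. The members were picked with these values known, so nothing is read from their counts.

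**Figure D3:**
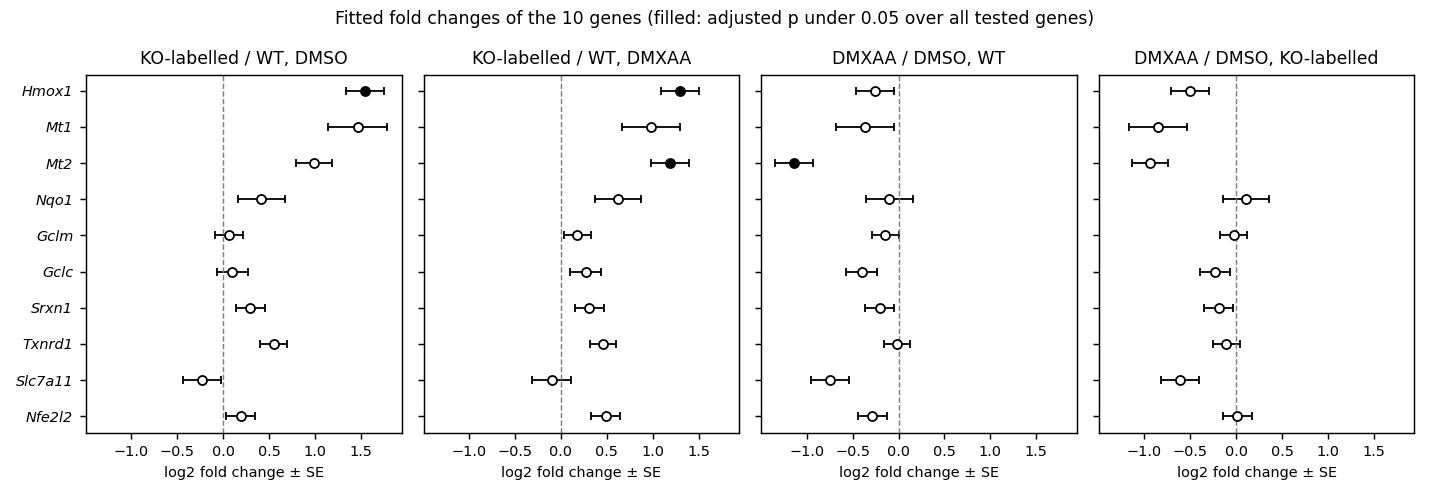
Fitted log2 fold changes (x axis) with their SE for the 10 genes (y axis) between genotype labels with DMSO or with DMXAA and between DMXAA and DMSO within each label (WT, wild type; KO, knockout). Filled points passed an adjusted p of 0.05 over all tested genes: Hmox1 at 1.54 with DMSO, Hmox1 at 1.29 and Mt2 at 1.19 with DMXAA, and Mt2 at -1.14 in wild-type islets.

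DMXAA for 3 h was accompanied by lower Mt2 in wild-type islets. Mt2 was 0.455 times as high with DMXAA as with DMSO (log2 fold change -1.14, SE 0.20, adjusted p = 0.00907), the 1 member of 10 called, where 1.48% of all genes were called and 0.375% were called lower. That call was lost without wild-type DMSO library 1 (adjusted p = 0.117), without wild-type DMXAA library 2 (0.186) and with only the 4 wild-type libraries in the fit (0.084). Slc7a11 had the next largest difference, -0.75 (SE 0.21, adjusted p = 0.139), and was at -0.96 without wild-type DMSO library 2. Mt1 differed by -0.36 (SE 0.31, adjusted p = 0.66) and Hmox1 by -0.25 (SE 0.21, adjusted p = 0.632). Mt1 turned to 0.15 without wild-type DMSO library 1, which had the highest acinar sum, and Hmox1 to 0.031 without wild-type DMXAA library 1. The libraries were apart and lower with DMXAA for 4 members, against 23.9% of all genes. Adjusted p-values of the other 6 members ran from 0.389 for Gclc to 0.98 for Txnrd1. Summed acinar markers overlapped between these groups. Endothelial markers summed to 657 to 841 CPM with DMSO and 521 to 549 CPM with DMXAA, with 3 of 8 called lower. Macrophage markers summed to 73.2 to 106 CPM with DMSO and 61.0 to 62.6 CPM with DMXAA, also apart, and edgeR called 0 of 10, with 3 of 10 at an unadjusted p under 0.05. The part of these cells in the values of Mt2, Hmox1 and the other members was not tested.

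In knockout-labelled islets, edgeR called 0 of the 10 members with DMXAA, where 0.375% of all genes were called. Of the 10, 4 had an unadjusted p under 0.05, and DESeq2 called 1, Mt2. DESeq2 called 148 of 18045 genes there, and the share of all genes at that unadjusted p was not counted. Mt2 differed by -0.94 (SE 0.19, edgeR adjusted p = 0.0644), Mt1 by -0.85 (SE 0.32, adjusted p = 0.567), Slc7a11 by -0.61 (SE 0.21, adjusted p = 0.404) and Hmox1 by -0.50 (SE 0.21, adjusted p = 0.59). The libraries of these 4 genes were apart and lower with DMXAA, as were those of Srxn1 and Txnrd1, 6 members against 17.7% of all genes. Acinar markers differed between the same groups, summing to 1529 to 2264 CPM with DMSO and 338 to 398 CPM with DMXAA, and edgeR called 0 of 12, with 9 of 12 at an unadjusted p under 0.05. With their sum in the fit the Mt1 difference was 0.13 and the Mt2 difference -0.74 (adjusted p = 0.59). Lymphocyte markers summed to 33.3 to 33.6 CPM with DMSO and 4.45 to 9.66 CPM with DMXAA, with 3 of 5 called lower. Endothelial markers summed to 603 to 659 and 982 to 1021 CPM, with 1 of 8 called higher. Fibroblast and stellate cell markers summed to 79.8 to 81.4 and 143 to 175 CPM, without overlap, and edgeR called 0 of 7, with 1 of 7 at an unadjusted p under 0.05. The part of these cells in the result was not tested.

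Averaged over the labels, DMXAA went with an Mt2 log2 fold change of -1.04 (SE 0.14, adjusted p = 0.00218), called in all 8 omissions of a library and not with the acinar sum in the fit (-0.91, adjusted p = 0.181). It was the 1 member called, where 0.745% of genes were called and 0.158% were called lower. Slc7a11 differed by -0.68 (SE 0.15, adjusted p = 0.0547), Mt1 by -0.61 (SE 0.22, adjusted p = 0.416) and Hmox1 by -0.38 (SE 0.15, adjusted p = 0.415). DESeq2, which called 209 of 18045 genes in this comparison, called Slc7a11 (adjusted p = 0.00855). In all 4 DMXAA libraries Slc7a11 was below all 4 DMSO libraries, and the share of all tested genes apart in this way was not counted.

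Whether the response to DMXAA differed by genotype label was tested as an interaction, the knockout-labelled difference minus the wild-type difference. EdgeR called 0 of 10 members, where 1.2% of all genes were called, with 0 at an unadjusted p under 0.05 and 0 called by DESeq2. The interaction was -0.25 for Hmox1 (95% interval -0.88 to 0.38, adjusted p = 0.85), -0.48 for Mt1 (-1.48 to 0.51, adjusted p = 0.807) and 0.20 for Mt2 (-0.40 to 0.80, adjusted p = 0.886). Intervals of this width include both no difference and differences as large as several of the treatment changes above.

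The wider pathway was followed in 5 lists of other genes: NRF2 regulators, other NRF2 targets, heme and iron handling, zinc and metallothionein handling, and other antioxidant enzymes. Of their 110 genes, 103 were tested. With DMXAA in wild-type islets edgeR called 0 of 103, with 10 at an unadjusted p under 0.05 and 1 called by DESeq2. In knockout-labelled islets it called 0, with 6 at an unadjusted p under 0.05 and 0 by DESeq2. The interaction likewise had 0 called, 6 at an unadjusted p under 0.05 and 0 by DESeq2. Of all genes, DESeq2 called 312 of 19265, 148 of 18045 and 300 of 16825 in these comparisons. The share of all genes at an unadjusted p under 0.05 was not counted, so nothing is read from those numbers. None of the genes with the smallest p in each list in wild-type islets passed the threshold. Slc30a1, the zinc exporter of the plasma membrane and a target of MTF1, had 48.2 and 36.7 CPM after solvent and 26.7 and 25.0 CPM after DMXAA, without overlap (log2 fold change -0.72, SE 0.18, adjusted p = 0.0752). Slc30a8, the zinc transporter of insulin granules, differed by -0.37 (adjusted p = 0.413). Among regulators, Mafk, a small MAF partner of NRF2, differed by 0.39 (adjusted p = 0.311) and Cul3 by -0.34 (adjusted p = 0.409). Txn1, which encodes thioredoxin, differed by 0.40 (adjusted p = 0.403) and Cat, which encodes catalase, by -0.46 (adjusted p = 0.419). The iron genes Ireb2 and Tfrc, for an iron sensor and the transferrin receptor, differed by -0.37 (adjusted p = 0.407) and -0.36 (adjusted p = 0.42). The superoxide dismutase genes Sod2 and Sod1 differed by 0.37 (adjusted p = 0.381) and 0.49 (adjusted p = 0.417).

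Between the genotype labels, Slc30a1 was called higher in knockout-labelled islets with DMXAA. Its levels were 51.8 and 65.7 CPM in knockout-labelled DMSO and 49.5 and 52.4 CPM in knockout-labelled DMXAA libraries, so that with DMXAA the knockout-labelled libraries were above the wild-type ones (log2 fold change 0.98, SE 0.18, adjusted p = 0.00697). It was the 1 gene of 103 called there, where 2.39% of all genes were called and 1.02% were called higher, a share near that of the list, and the call was lost in 3 of 8 omissions, with adjusted p up to 0.0954. With DMSO edgeR called 0 of 103, with 19 at an unadjusted p under 0.05 and 3 called by DESeq2. DESeq2 called 152 of 14385 genes there, and the share of all genes at that unadjusted p was not counted. Averaged over treatments 4 of 103 were called, all higher in knockout-labelled islets, where 1.65% of all genes were called and 0.657% were called higher. They were Slc30a1 (0.72, SE 0.12, adjusted p = 0.00844), Maff (0.66, SE 0.12, adjusted p = 0.0154), Gstp1 (0.68, SE 0.14, adjusted p = 0.0217) and Gpx3 (0.69, SE 0.15, adjusted p = 0.032). Maff encodes a small MAF protein and had 47.7 to 64.2 CPM in wild-type and 82.8 to 109 CPM in knockout-labelled libraries, without overlap. Gstp1, a glutathione transferase with near-identical copies that can share its reads, had 94.0 to 121.8 CPM in wild-type and 121.7 to 196 CPM in knockout-labelled libraries, a slight overlap. Gpx3, the secreted glutathione peroxidase, had 245 to 369.5 and 411 to 599 CPM, without overlap. The calls of Maff, Gstp1 and Gpx3 were each lost in 5 of 8 omissions and with the acinar sum in the fit, and that of Slc30a1 in 1 omission. Keap1 and Bach1, the repressors of this pathway, had 49.8 to 70.3 and 63.3 to 76.4 CPM in wild-type libraries and 54.5 to 68.3 and 61.6 to 64.7 CPM in knockout-labelled libraries, overlapping between the labels.

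Most of the other NRF2 targets had small positive differences between the labels. Of 37 tested, 31 had a positive log2 fold change between the labels with DMSO and 33 with DMXAA, with medians of 0.25 and 0.26. The median over all genes was 0.00 and 0.04, and 50% and 54.3% of them were positive. A positive difference was thus not particular to these targets. Beta cell markers were positive for 8 and 10 of 10 and alpha cell markers for 5 and 4 of 5, against 1 and 0 of 12 acinar markers. The other antioxidant enzymes had medians of 0.26 and 0.14, and the zinc list -0.07 and 0.11. With DMXAA in wild-type islets the medians were 0.03 for the other NRF2 targets, -0.03 for heme and iron handling and -0.22 for the zinc list.

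**Figure D4:**
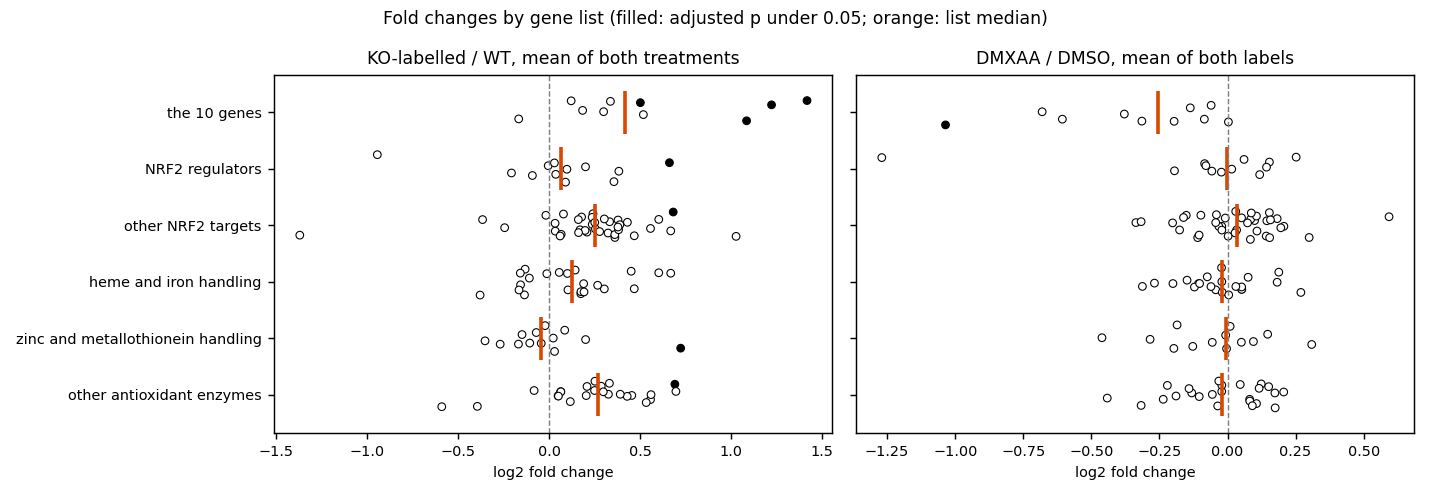
Log2 fold changes (x axis) of the 10 genes and of each list of other pathway genes (y axis), between genotype labels averaged over treatments (left) and between DMXAA and DMSO averaged over labels (right). Each point is a gene, filled where the adjusted p was under 0.05, and orange lines are list medians. On the left the medians are 0.42 for the 10 genes and 0.25 for other NRF2 targets, and on the right Mt2 at -1.04 is the filled point.

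Likeness of pattern was measured as the Pearson correlation of log2 CPM over the 8 libraries, among 9214 genes with a mean of at least 10 CPM. The libraries share groups, depth and cell makeup, so the values are a description. Hmox1 was most like Txnrd1 (r = 0.98), then Egln1, which encodes an oxygen-sensing prolyl hydroxylase (0.98), the co-chaperone genes Dnajb1 (0.98) and Dnajc8 (0.97), and Cebpd, a transcription factor gene (0.97). Mt1 was most like Rragd (0.98), which encodes a Rag GTPase, Ythdf2 (0.97) and Elavl1 (0.97), which encode RNA-binding proteins, Ppp2r2d (0.97), for a phosphatase subunit, and Tuba4a (0.96), for a tubulin. Mt2 was not among the 5 genes nearest to Mt1, and the correlation between them was 0.81. Slc7a11 had correlations of -0.04 with Hmox1 and 0.16 with Mt1.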

How the data were processed

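PolyA+ RNA of 8 islet libraries was sequenced. Reads were aligned with HISAT2 to mm10 and counted per gene with HTSeq, per the submitters' processing notes. The values deposited by the authors are raw counts per Ensembl gene, 1 table per library. Tool versions, gene annotation and strand setting were not given in the sources used here. Of 54532 IDs, 54495 matched GENCODE M21, which gave symbols, coordinates and exon lengths; promoter windows were from RefSeq (GRCm38.p6).

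Counts were tested with edgeR 4.0.16 in R 4.3.3 (quasi-likelihood F test, TMM scaling, filterByExpr with a minimum count of 10), in 1 fit of 4 groups of 2 libraries, with Benjamini-Hochberg adjustment over 17055 genes. CPM are TMM-scaled. A call is an adjusted p under 0.05. The share of all genes at an unadjusted p under 0.05 was not counted, so nothing is read from numbers of genes under it. SEs come from the fit, and SDs are over the 8 libraries. With 2 libraries against 2, an exact permutation test of a single gene cannot go below p = 0.333. The common biological coefficient of variation was 16.4%, and counting error was small beside it only for genes with many counts. Genes with few counts, such as Sting1 and Gm17494, carry a larger counting error. The procedure was tested on simulated data.

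The members and gene lists were chosen with earlier results of these data known. Named were all members; from each list, called genes and, where none was called in wild-type islets with DMXAA, the 2 with the smallest p there; the 5 genes most like Hmox1 and Mt1; and Sting1, Ins2, Gcg and Cxcl10 as checks. Hmox2, Blvra, Blvrb, Keap1 and Bach1 are given in addition, chosen after their values were seen. The 9 marker lists were those of beta, alpha, delta and PP, acinar, duct, macrophage, endothelial, fibroblast and lymphocyte cells. Replicates of a group differed beyond counting noise (chi-square per degree of freedom 7.41 to 59.8), and replicate numbers did not pair libraries across groups (correlations of deviations -0.10 to 0.07). Alternatives were DESeq2 1.42.0, RLE scaling, an older form of the test, no filter and a stricter filter on low counts, the replicate number as a block, the log2 acinar sum as a covariate, only the libraries compared, and leaving out each library.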

Additional observations from a re-analysis of the deposited data

How the results depend on the processing

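No called difference of a member changed sign under any alternative. Of 36 member fold changes reported, 7 had the opposite sign under some alternative. The acinar covariate gave Mt1 0.13 for DMXAA in knockout-labelled islets, 0.22 for the interaction and 0.014 for DMXAA over both labels. Leaving out single libraries gave ranges of -0.61 to 0.031 for Hmox1 and -0.73 to 0.15 for Mt1 with DMXAA in wild-type islets, and of -0.53 to 0.11 for Hmox1 and -0.035 to 0.46 for Mt2 in the interaction. The causes were not tested. Of 34 further member differences, not given as fold changes since none was called, 20 changed sign.

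For DMXAA in wild-type islets, 0 members were called with only 4 libraries, and 1 other pathway gene was called by DESeq2 and 1 without a filter. Over all genes these settings called 173 of 16347, 312 of 19265 and 321 of 31466, against 253 in the main fit. In knockout-labelled islets, 1 member was called by DESeq2, without a filter and with 4 libraries. Calls over all genes were 148 of 18045, 177 of 31466 and 129 of 16038, against 64 in the main fit. Between labels with DMSO, DESeq2 called 3 members and 3 pathway genes, no filter 2 and 3, and the acinar covariate 2 members. DESeq2 called 152 of 14385 genes there, no filter 159 of 31466 and the covariate 48 of 17055, against 38 in the main fit. Between labels with DMXAA, DESeq2 called 4 pathway genes, no filter 3, and the acinar covariate 1 member. These settings called 597 of 14995, 559 of 31466 and 173 of 17055 genes, against 407 in the main fit. For DMXAA over both labels, DESeq2 and no filter called 2 members each and the acinar covariate 0. All calls were then 209 of 18045, 198 of 31466 and 41 of 17055 genes, against 127 in the main fit. Between labels over both treatments, DESeq2 called 10 pathway genes, no filter 8 and the acinar covariate 1. The matching totals were 616 of 15605, 459 of 31466 and 64 of 17055 genes, against 282 in the main fit. Nothing is read from the member and pathway counts beside these totals.

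The replicate block, where numbers share only a name, called 1 member for DMXAA in knockout-labelled islets, 2 members between labels with DMSO, 2 members for DMXAA over both labels, 3 pathway genes between labels with DMXAA and 7 over both treatments. Of all 17055 genes, that fit called 61, 56, 145, 417 and 366 in the same order of comparisons.

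Without single libraries, members called ranged from 0 to 2 for DMXAA in wild-type islets, 0 to 1 in knockout-labelled islets and 1 to 2 over both, and between labels from 0 to 2 with DMSO, 1 to 2 with DMXAA and 2 to 4 over both. Pathway genes called ranged from 0 to 3 for DMXAA in wild-type islets and 0 to 2 over both, and between labels from 0 to 3 with DMSO, 0 to 9 with DMXAA and 0 to 20 over both, the highest without knockout-labelled DMXAA library 1. Hmox1 and Mt2 between labels over both treatments, and Mt2 with DMXAA over both labels, kept their calls in every omission, and the other member calls were lost in at least 1. Without knockout-labelled DMXAA library 1, calls over all genes also rose between labels, both with DMXAA and over both treatments. Each omission leaves 1 library in a group. Nothing is read from the numbers of members and pathway genes called without single libraries. Groups of 2 libraries limit every comparison.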
